A study of Mus musculus with 16 samples.

Results

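Cytochrome P450 enzymes are haem proteins that insert oxygen into small molecules, and they draw their electrons mostly from P450 reductase, the product of *Por*. Members of the Cyp1, *Cyp2* and Cyp3 families are best known for clearing foreign compounds, and the nasal lining is among the tissues richest in them outside the liver, where they also meet inhaled odorants. Other families hydroxylate fatty acids, cholesterol, steroids, vitamin D or retinoic acid. The genes described here were all those with a symbol of the form Cyp, a family number, a subfamily letter and a gene number that both the count and the RPKM tables list, which gave 104 of 24340 genes. They comprised 62 genes for foreign compounds, 22 for fatty acids, 6 for steroid hormones, 6 for cholesterol and bile acids, 6 for retinoic acid and vitamin D, the orphan enzyme *Cyp20a1*, and the transcript *Cyp4x1os*, which the symbol rule took although it is antisense to *Cyp4x1*. Genes of the Cyp1, *Cyp2* and Cyp3 families without another listed role were counted as genes for foreign compounds, whatever their substrate. Genes of the Cyp4 family were counted as genes for fatty acids. Among the 104, 4 symbols were those of pseudogenes, and *Cyp51*, *Ptgis* and *Tbxas1*, which also encode P450 enzymes, were not taken by the rule.

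Expression was measured in the vomeronasal organ (VNO), the pheromone-sensing organ of the nasal septum, by RNA sequencing of 16 libraries. The mice descended from the outbred Hsd:ICR strain, were 12 weeks old and came from generation 88 of a breeding experiment with 4 High Runner (HR) lines selected for voluntary wheel running (lines 3, 6, 7 and 8) and 4 non-selected Control lines (lines 1, 2, 4 and 5). Each line gave 1 male and 1 female library, each a pool of 3 mice, so the 4 groups of HR males, Control males, HR females and Control females held 4 libraries each. The VNO markers *Omp*, *Gnao1* and *Gnai2* were present in all 16 libraries, whereas *Trpc2*, their defining channel, had no counts in any count column but 259 to 417 RPKM in the RPKM tables, so the count tables do not measure it. Between 15998552 and 70875276 reads per library fell on genes. Since the data are from bulk tissue, fewer cells of a type and less RNA per cell cannot be told apart.

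The level of a gene is given as RPKM, reads scaled to gene length and library size, taken as the mean of the male and the female median. Of the 104 genes, 27 had a level of at least 1 RPKM, 42 reached 0.1 RPKM, and 15 had no count in any library. The gene just inside the first bound was *Cyp2g1* at 1.27 RPKM and the gene just outside was *Cyp4f39* at 0.958 RPKM. A filter on low counts left 40 of the 104 genes for testing, and the other 64 are described by their levels only. The summed level of all 104 was 556 RPKM, and 2 genes, *Cyp2a5* and *Cyp2f2*, made up 63.2% of it.

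*Cyp2a5*, which hydroxylates coumarin and nicotine and is known from the nasal mucosa, was the highest P450 gene at 246 RPKM (62.7 to 589.6), rank 217 of the 24340 genes. It lies on chromosome 7 (chr7:26835305-26843548, plus strand, GRCm38). Its close relative *Cyp2a4* (chr7:26307169-26315088, plus strand) was at 0.0902 RPKM (0 to 0.357). Of the 75-base words in the transcripts of *Cyp2a4*, 20.97% also occur in *Cyp2a5*, and reads from shared words were not counted on either gene. The 2 promoters are printed because these genes differ so far in level while their windows from 250 bases before to 50 after the RefSeq start differ at few bases. The capitals in the first mark TTGGC, the motif bound by nuclear factor I proteins, searched on both strands.
*Cyp2a5* promoter, chr7:26835089-26835388, plus strand, GRCm38.p6: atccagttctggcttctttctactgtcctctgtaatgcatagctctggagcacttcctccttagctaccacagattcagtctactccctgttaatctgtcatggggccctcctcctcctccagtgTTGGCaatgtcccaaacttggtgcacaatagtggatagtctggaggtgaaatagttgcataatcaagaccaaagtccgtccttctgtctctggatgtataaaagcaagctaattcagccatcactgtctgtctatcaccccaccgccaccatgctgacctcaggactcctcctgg
*Cyp2a4* promoter, chr7:26306942-26307241, plus strand, GRCm38.p6: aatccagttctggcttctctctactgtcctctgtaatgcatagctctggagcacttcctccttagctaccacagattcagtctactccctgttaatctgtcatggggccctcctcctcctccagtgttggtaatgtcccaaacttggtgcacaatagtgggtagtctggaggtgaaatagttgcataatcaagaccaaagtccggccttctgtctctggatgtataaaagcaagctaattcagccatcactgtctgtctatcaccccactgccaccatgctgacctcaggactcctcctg
Over 299 aligned bases the 2 windows were 98.33% identical. The 5 substitutions from *Cyp2a5* to *Cyp2a4* were T18C, C130T, A160G, T204G and C269T, with positions counted from 1 at the 5′ end of the *Cyp2a5* window. C130T falls in the marked motif, as the aligned stretches show.
*Cyp2a5*, positions 121 to 145: cagtgTTGGCaatgtcccaaacttg
*Cyp2a4*, positions 122 to 146: cagtgTTGGTaatgtcccaaacttg
TTGGC on either strand occurred in 47.03% of 27025 RefSeq promoters of 300 bases and in 49 of the 77 P450 promoters available (63.64%), so the motif is frequent in any window of this length.

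*Cyp2a5* differed several-fold between libraries. It had 350.1, 113, 290.1 and 201 RPKM in the Control males of lines 1, 2, 4 and 5 and 209, 399.6, 265 and 342 RPKM in the HR males of lines 3, 6, 7 and 8. It had 352, 129, 233 and 62.7 RPKM in the Control females and 99, 589.6, 197 and 363 RPKM in the HR females of the same lines. HR line 6 was the highest line in both sexes, and the lowest pools were the males of Control line 2 and the females of Control line 5, HR line 3 and Control line 2. *Cyp2f2* (chr7:27119909-27133660, plus strand), the enzyme that activates naphthalene in airway cells, came next at 105 RPKM (30.6 to 249), rank 683 of all genes. It had 38.4, 32.9, 188 and 133 RPKM in the Control males of lines 1, 2, 4 and 5 and 181, 233, 40.1 and 30.6 RPKM in the HR males of lines 3, 6, 7 and 8. It had 188, 39.2, 227 and 151 RPKM in the Control females and 97.7, 249, 32.3 and 32.7 RPKM in the HR females of the same lines. These values left a gap between 40.1 and 97.7 RPKM, with both pools of Control line 2 and HR lines 7 and 8 and the male pool of Control line 1 below it.

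The next genes by level spread less between libraries. *Cyp2j6* and *Cyp2j9* were at 36.3 RPKM (30 to 48.1) and 22.2 RPKM (19.1 to 31.3). Among genes for fatty acid hydroxylation, *Cyp4f15* was at 21.6 RPKM (15.5 to 27.8), *Cyp4v3*, the mouse counterpart of the gene mutated in Bietti crystalline dystrophy, at 17.3 RPKM (15 to 20.8), *Cyp4f13* at 10.2 RPKM (4.83 to 13) and *Cyp4x1* at 6.65 RPKM (4.39 to 10.3). *Cyp20a1*, whose substrate is not known, was at 18.4 RPKM (12 to 24.1). *Cyp39a1*, an oxysterol hydroxylase of bile acid synthesis, was at 8.91 RPKM (7.08 to 12.4), and *Cyp46a1*, which neurons use to remove cholesterol, at 5.18 RPKM (2.61 to 7.3). *Cyp1b1*, a target of the aryl hydrocarbon receptor that also acts on oestradiol, was at 8.76 RPKM (4.65 to 13.5), *Cyp2d22* at 7.46 RPKM (4.73 to 10.6), and *Cyp26b1*, which breaks down retinoic acid, at 6.35 RPKM (4.21 to 7.98).

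Genes for making steroid hormones were close to silent. None of the 6 reached 1 RPKM. The highest were *Cyp11a1*, which cuts the side chain of cholesterol in the first step of steroid synthesis, at 0.23 RPKM (0.0937 to 0.782) and *Cyp21a1*, the adrenal steroid hydroxylase, at 0.0444 RPKM (0 to 0.16). The activating enzyme of vitamin D, *Cyp27b1*, was at 0.148 RPKM (0.071 to 0.215). *Alb*, the defining marker of hepatocytes, was between 0 and 0.128 CPM (counts scaled to library size) in every library, and *Fgb*, a fibrinogen gene, had no counts. Of the other genes of the hepatocyte list, *Apoa1* was at 0.031 to 1.28 CPM, *Ahsg* at 2.17 to 4.02 CPM and *Serpina1a* at 1.75 to 42.3 CPM. The electron partners and haem supply genes were all present, with *Por* at 539 to 753 CPM and *Alas1*, the entry step of haem synthesis, at 61.6 to 105 CPM.

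**Figure D1:**
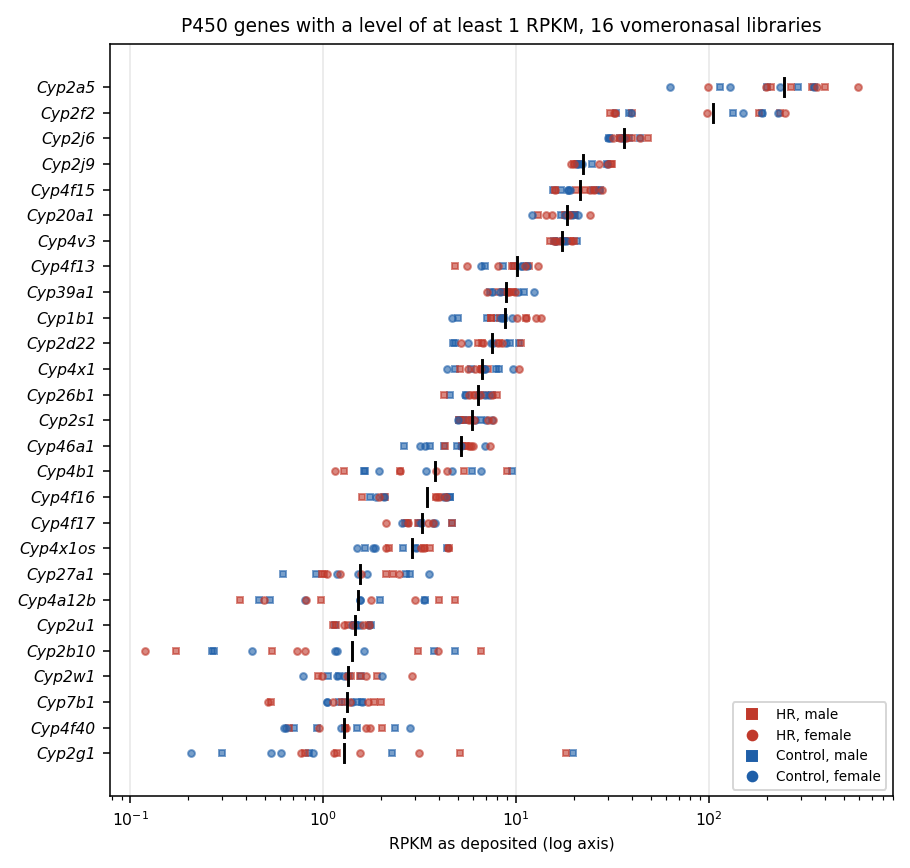
RPKM of the 27 P450 genes with a level of at least 1 RPKM in each of the 16 libraries, on a log axis. Squares are male pools and circles female pools, red HR and blue Control, and the black bar is the level. *Cyp2a5* and *Cyp2f2* lie far to the right and spread widely, *Cyp2b10*, *Cyp2g1*, *Cyp4a12b* and *Cyp4b1* spread widely at low levels, and *Cyp4v3* hardly spreads.

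To ask how far lines of 1 linetype differ, the 4 lines within each linetype were compared in edgeR's quasi-likelihood test with sex and line in the model. Differences between lines were common: 19 of the 40 tested P450 genes had a Benjamini-Hochberg adjusted p under 0.05, against 28.6% of all 16507 genes. By role these were 7 of 18 genes for foreign compounds, 8 of 13 for fatty acids, 3 of 4 for cholesterol and bile acids, 0 of 2 for retinoic acid and vitamin D, 0 of 1 for steroid hormones, and the antisense transcript. These roles follow the family, so *Cyp2j6* and *Cyp2j9* count here as genes for foreign compounds and *Cyp4b1* as a gene for fatty acids. *Cyp20a1* was not called. Of the 9 electron partner and haem genes, all tested, 0 were called, of the 6 tested receptor genes that regulate P450 genes 0, and of the 3 P450 genes the symbol rule does not take 2. The SD of the 8 line means on the log2 CPM scale had a median of 0.45 over the 40 P450 genes and of 0.19 over all genes tested. A line difference rests on 2 pools per line, and litter, cage or dissection of a line could not be told apart from the line.

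The P450 genes with the largest SD between lines were *Cyp2b10* (1.59), *Cyp2e1* (1.27), *Cyp2f2* (1.19), *Cyp4a12b* (1.13), *Cyp4b1* (0.94), *Cyp3a13* (0.94), *Cyp2j13* (0.92) and *Cyp4f39* (0.90). *Cyp2b10*, a target of the constitutive androstane receptor, was at 1.4 RPKM (0.119 to 6.6) with an adjusted p of 0.0318. *Cyp2e1*, the ethanol-oxidizing enzyme, was at 0.316 RPKM (0 to 2.48) with an adjusted p of 0.0632. *Cyp4a12b*, a fatty acid omega-hydroxylase that shares 41.32% of its words with *Cyp4a12a*, was at 1.51 RPKM (0.371 to 4.84) with an adjusted p of 0.0158. *Cyp4b1*, which activates furan toxins, was at 3.79 RPKM (1.15 to 9.55) with an adjusted p of 0.00623. *Cyp3a13* was at 0.142 RPKM (0.0321 to 0.691) with an adjusted p of 0.0385. *Cyp2f2* had an adjusted p of 0.00762 and *Cyp2a5* of 0.0244 in the same test. *Cyp4x1os*, at 2.87 RPKM (1.5 to 4.48), had an adjusted p of 0.0103, and since the use of strand in counting is not given in the sources used here, reads from the stretch where it overlaps *Cyp4x1* on the other strand cannot be told apart. Of its words, 80.51% are unique and 19.49% are shared with *Cyp4x1*. When each line was left out in turn, the calls of *Cyp2f2*, *Cyp4b1*, *Cyp2j13*, *Cyp4f39* and *Cyp4x1os* stayed in all 8 runs. The call of *Cyp4a12b* was lost without HR line 8, that of *Cyp2a5* without Control line 2, those of *Cyp39a1* and *Cyp4x1* without Control line 2 or 5, that of *Cyp2b10* without Control line 2 or HR line 6, 7 or 8, and that of *Cyp3a13* in 5 of 8 runs.

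Several of these genes moved with the markers of nasal glands, a list of 8 secreted lipocalin and related genes led by *Obp2a*, *Lcn3* and *Lcn4*, of which *Bpifb3* was at 0 in 1 library and the other 7 in none. The summed list was 6100 to 118560 CPM in Control males, 7082 to 101365 CPM in HR males, 10542 to 49290 CPM in Control females and 934 to 85601 CPM in HR females. The 7 libraries lowest in this sum (934 to 13547 CPM) were the same 7 that were lowest in *Cyp2f2*, in *Cyp4b1*, in *Cyp4a12b*, in *Cyp2b10*, in *Cyp2e1* and in *Cyp27a1*, a sterol hydroxylase chosen after its values were seen. Pearson's r over the 16 libraries between log2 CPM of the gene and of the sum, after the mean of each sex was removed, was 0.91 for *Cyp2e1*, 0.91 for *Cyp2b10*, 0.90 for *Cyp4b1*, 0.85 for *Cyp2f2*, 0.85 for *Cyp27a1*, 0.84 for *Cyp4a12b* and 0.83 for *Cyp2d22*. The 7 genes with r of at least 0.7 stood against 9.35% of all genes tested. In the opposite direction, *Cyp2j9* (r = -0.86), *Cyp4x1* (r = -0.80) and *Cyp4v3* (r = -0.71) had r of at most -0.7, as had 5.76% of all genes. *Cyp2a5* had r = -0.14. The sum over VNO neuron markers, which lacks *Trpc2* for want of counts, ranged from 2567 to 4981 CPM and had r = -0.85 with *Cyp4b1*, -0.69 with *Cyp2f2*, 0.78 with *Cyp2j9* and 0.86 with *Cyp4x1*. With this sum 3 of 40 P450 genes had r of at least 0.7, against 14.8% of all genes tested. The number with r of at most -0.7 was 6 of 40, against 14.4%. The respiratory and ciliated epithelium list of 6 genes, of which the club cell marker *Scgb1a1* was at 0 in 8 of 16 libraries and at most 0.0515 CPM, ranged from 51.8 to 803 CPM in sum, and the macrophage list, none of whose 4 was at 0, from 57.2 to 476 CPM. These sums had r of 0.94 and 0.81 with *Cyp4a12b* and of -0.90 and -0.77 with *Cyp2j9*. The widest range was that of *Bpifa1* (14.1 to 706 CPM) in the respiratory list and of *Lyz2* (20.9 to 411 CPM) in the macrophage list. *Foxj1* was at 4.58 to 33.2 CPM and *Cd68* at 10.1 to 15.6 CPM, so the r of a sum need not hold for its other genes. For the respiratory sum, 7 and 2 of 40 P450 genes reached 0.7 and -0.7, against 8.18% and 5.83% of all genes tested. The 7 genes were the same as for the nasal gland sum. Like *Cyp4a12b*, *Cyp2b10* (r = 0.94) and *Cyp2f2* (r = 0.90) had a higher r with the respiratory sum. *Cyp4b1* (r = 0.88), *Cyp2e1* (r = 0.82) and *Cyp27a1* (r = 0.81) had a lower one, and *Cyp2d22* had 0.83 with each sum. For the macrophage sum the numbers were 6 and 2 of 40, against 12.1% and 9.81%. The remaining lists ranged from 1358 to 2029 CPM for sustentacular cells and Bowman's glands, 871 to 1383 CPM for main olfactory neurons, 15.6 to 51.4 CPM for vessels and blood, 10.7 to 15.3 CPM for steroid-producing cells, 5.17 to 47.6 CPM for hepatocytes and 3.33 to 28.1 CPM for cartilage and bone. The vessels and blood sum holds only *Pecam1* and *Cdh5*, since the haemoglobin genes *Hba-a1* and *Hbb-bs* had no counts in any library. *Hba-a1* had 53.5 to 293 RPKM, so the sum does not measure blood. Libraries share depth and dissection, and the part of these tissues in the line differences was not tested.

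**Figure D2:**
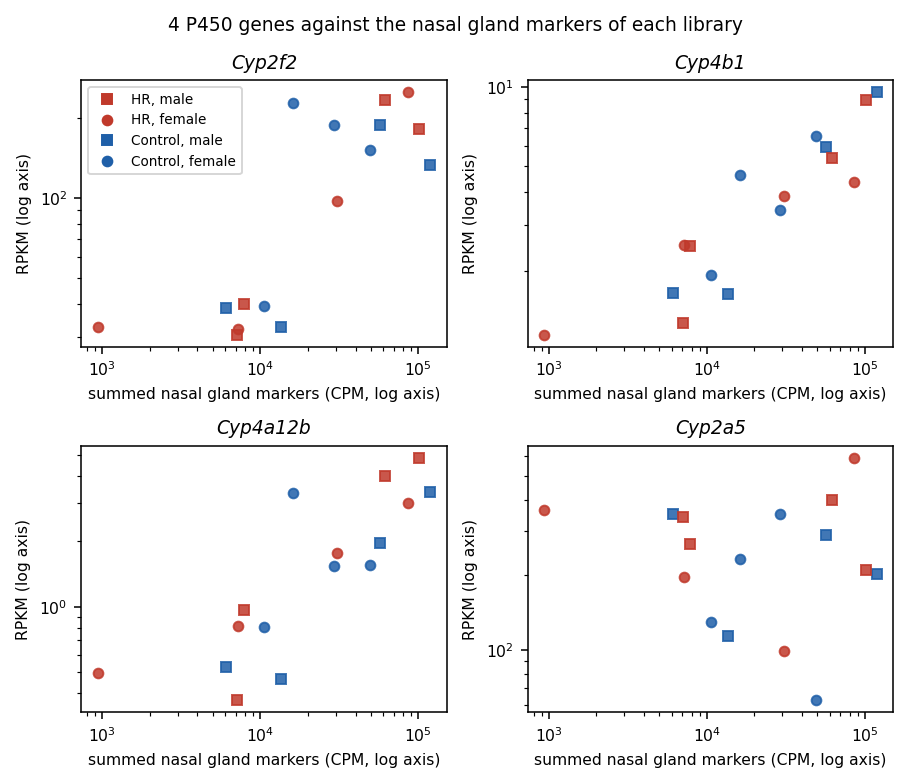
RPKM of *Cyp2f2*, *Cyp4b1*, *Cyp4a12b* and *Cyp2a5* against the summed CPM of the nasal gland markers, both on log axes, 1 point per library (squares male, circles female, red HR, blue Control). *Cyp2f2* is at or below 40.1 RPKM in the 7 libraries with the lowest sum and at or above 97.7 RPKM in the others, *Cyp4b1* and *Cyp4a12b* rise along the axis, and *Cyp2a5* does not follow it (r = -0.14).

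*Cyp2j9* differed between lines by the smallest adjusted p of any P450 gene (0.000713), although its SD was only 0.28. It had 24.9, 29.5, 20.8 and 21 RPKM in the Control males of lines 1, 2, 4 and 5 and 20, 20.7, 31.2 and 31.3 RPKM in the HR males of lines 3, 6, 7 and 8. It had 22.1, 29.6, 21 and 20.6 RPKM in the Control females and 19.9, 19.1, 26.9 and 29.9 RPKM in the HR females of the same lines. Both pools of Control line 2 and HR lines 7 and 8 were above all other libraries, so that the lines above the rest included both linetypes. *Cyp2j6*, its neighbour on chromosome 4, had an SD of 0.19 and an adjusted p of 0.0118, which was lost without HR line 8.

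Several other differences between lines came from the *Cyp4f* cluster on chromosome 17. These genes encode hydroxylases of long-chain fatty acids and leukotrienes, and 9 of them lie between position 32452723 and position 32965718 in the order *Cyp4f39*, *Cyp4f17*, *Cyp4f16*, *Cyp4f37*, *Cyp4f40*, *Cyp4f15*, *Cyp4f14*, *Cyp4f13* and the pseudogene *Cyp4f41-ps*. Of the 8 tested, 5 were called between lines, against 28.6% of all genes tested. They were *Cyp4f39* (edgeR adjusted p = 0.00157), *Cyp4f13* (0.00174), *Cyp4f40* (0.00258), *Cyp4f37* (0.0049) and *Cyp4f16* (0.0124). *Cyp4f16*, *Cyp4f37* and *Cyp4f40* were chosen after their values were seen. *Cyp4f15*, *Cyp4f14* and *Cyp4f17* were not called.

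*Cyp4f39*, which makes the very long ceramides of the skin barrier, and *Cyp4f16* ran against each other across lines. *Cyp4f39* had 0.792, 1.36, 1.9 and 0.501 RPKM in the Control males of lines 1, 2, 4 and 5 and 1.67, 0.488, 0.491 and 1.41 RPKM in the HR males of lines 3, 6, 7 and 8. It had 0.85, 1.34, 2.99 and 0.508 RPKM in the Control females and 1.54, 0.434, 0.343 and 0.827 RPKM in the HR females of the same lines. Control line 4 was highest in both sexes, and Control line 5 and HR lines 6 and 7 were lowest. *Cyp4f16* had 4.54, 1.74, 2.07 and 4.54 RPKM in the Control males of lines 1, 2, 4 and 5 and 2.1, 3.83, 4.25 and 1.59 RPKM in the HR males of lines 3, 6, 7 and 8. It had 4.39, 1.88, 2.07 and 4.24 RPKM in the Control females and 1.96, 4.32, 3.99 and 3.87 RPKM in the HR females of the same lines. All its values were either at or below 2.10 RPKM or at or above 3.83 RPKM, with Control lines 2 and 4 and HR line 3 low, Control lines 1 and 5 and HR lines 6 and 7 high, and HR line 8 low in the male pool but high in the female pool. Over the 8 line means Pearson's r was -0.87 between *Cyp4f39* and *Cyp4f16*, and 0.91 between *Cyp4f16* and *Cyp4f40*. *Cyp4f13* followed a different order and had 11.4, 8.55, 9.79 and 6.9 RPKM in the Control males of lines 1, 2, 4 and 5 and 9.5, 4.83, 11.6 and 9.74 RPKM in the HR males of lines 3, 6, 7 and 8. It had 11.3, 10.6, 10.8 and 6.56 RPKM in the Control females and 11.2, 5.54, 13 and 8.02 RPKM in the HR females of the same lines. Control line 5 and HR line 6 were lowest in both sexes, as they were for *Cyp4f37* (r = 0.86 over line means). In this cluster the nasal gland sum had r between -0.52 (*Cyp4f37*) and 0.63 (*Cyp4f17*), and between -0.09 and 0.09 for *Cyp4f16*, *Cyp4f39* and *Cyp4f40*. The reads were aligned with no mismatch accepted, so a lower level of transcript and a read lost at a base that differs from the reference cannot be told apart in any of these genes. *Cyp4f16* shares 9.353% of its words with *Cyp4f37*, whereas all words of *Cyp4f39* and *Cyp4f40* are unique.

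**Figure D3:**
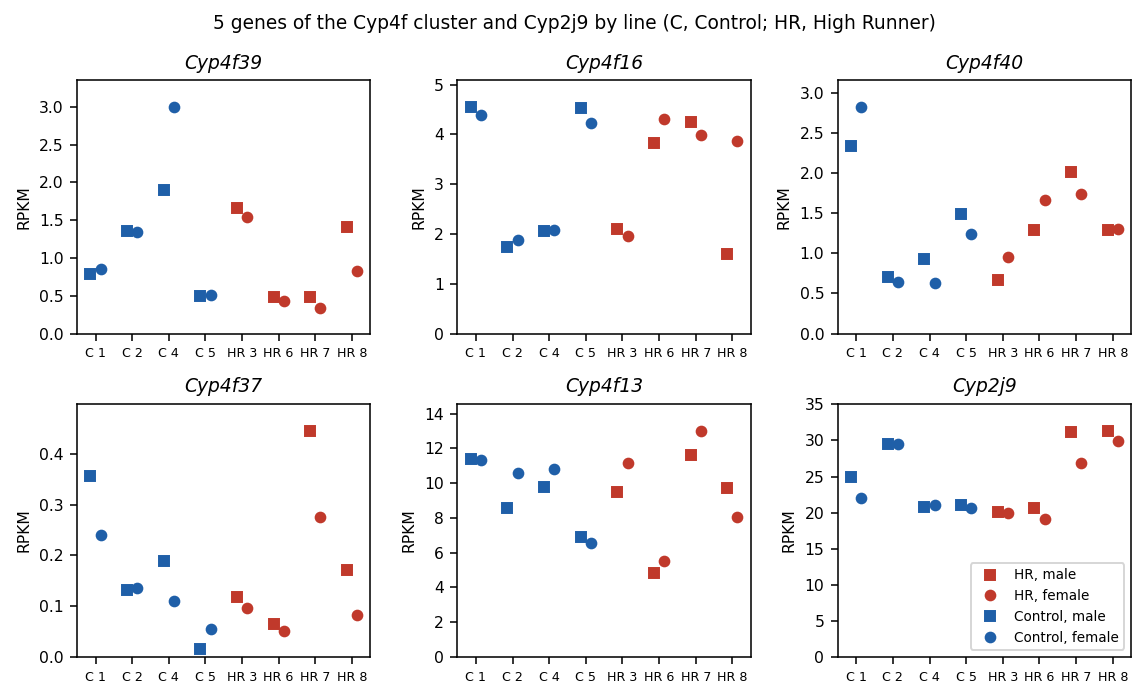
RPKM of 5 genes of the *Cyp4f* cluster and of *Cyp2j9* by line, axes from 0, with the male pool as a square and the female pool as a circle, red for HR and blue for Control lines. *Cyp4f16* splits into libraries near 2 and near 4 RPKM, *Cyp4f39* runs the other way, and *Cyp4f13* is lowest in Control line 5 and HR line 6. The 2 pools lie apart in HR line 8 for *Cyp4f16* (1.59 RPKM male, 3.87 RPKM female). They also do in Control line 4 for *Cyp4f39* (1.90 RPKM male, 2.99 RPKM female).

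Whether the 2 pools of a line agreed was asked by the correlation of male with female log2 CPM over the 8 lines, tested by exact permutation of the pairings in both directions and adjusted over all 16507 genes. The median Pearson's r was 0.66 over the 40 P450 genes and 0.51 over all genes tested. Only *Cyp4f39* reached an adjusted p under 0.05 among P450 genes, 1 of 40, against 2.35% of all genes. It had r = 0.91 (exact permutation p = 0.000298, adjusted p = 0.0397) and Spearman's rho = 0.93 (exact permutation p = 0.00223, adjusted p = 0.0871). Without the 2 lines farthest from the median, HR lines 6 and 7, r was 0.83. With any 1 line left out, 0 of all 16507 genes passed the adjustment over the 7 lines that remained. *Cyp2j9* had the highest r, 0.95 (exact permutation p = 0.00246, adjusted p = 0.0604), with rho = 0.81 (exact permutation p = 0.0218) and r = 0.93 without HR lines 7 and 8. *Cyp2a5* had r = 0.77 (exact permutation p = 0.0206, adjusted p = 0.128), rho = 0.90 and r = 0.99 without Control line 2 and HR line 6. *Cyp2f2* had r = 0.75 (exact permutation p = 0.0528, adjusted p = 0.189), rho = 0.71 and r = 0.56 without Control line 4 and HR line 6. The lowest r belonged to *Cyp4f18* (-0.24), which degrades leukotriene B4 in neutrophils, *Cyp27b1* (-0.19) and *Cyp2t4* (-0.16), none of which was called between lines. The line test takes the spread of the 2 pools of a line as its error, so a low r makes a call unlikely by design.

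**Figure D4:**
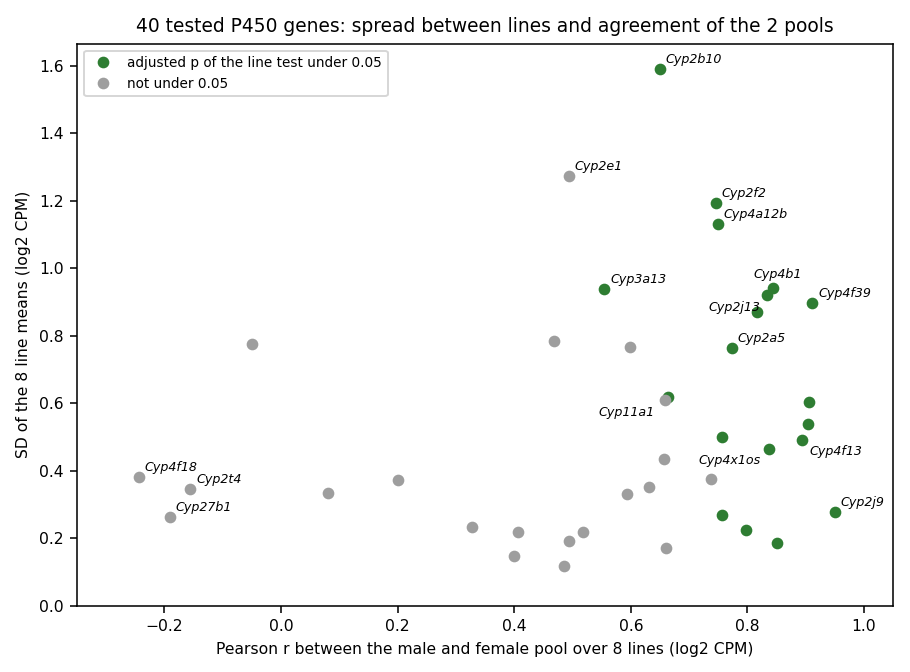
SD of the 8 line means (log2 CPM) against Pearson's r between male and female pool over 8 lines for the 40 tested P450 genes, green where the line test had an adjusted p under 0.05. The 19 called genes all lie at r above 0.55, and the genes with the lowest r, *Cyp4f18*, *Cyp27b1* and *Cyp2t4*, are not called. Both axes and the line test use the same values, and a low r makes a call unlikely by design.

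The 2 male libraries of Control line 5 and HR line 3 stood apart in *Cyp2g1*, an enzyme known from the olfactory mucosa, with 19.7 and 18.1 RPKM against at most 5.13 RPKM in the others. They were also the highest in *Cyp1a2*, at 4.82 and 3.51 RPKM against at most 0.735 RPKM elsewhere. Both genes were chosen after their values were seen. *Cnga2*, the main olfactory channel gene, reached 5.20 CPM in the first of these libraries against a median of 0.125 CPM. *Gpx6*, a gene of olfactory glands, reached 30.7 CPM there against a median of 0.669 CPM. Both were named after their values were seen, and the genes of their lists did not all follow. The 2 libraries were also the highest in *Gnal* (18.5 and 14.8 CPM), *Sec14l3* (94.5 and 95.5 CPM) and *Ermn* (1.10 and 1.02 CPM). They were below the median in *Ano2*, *Krt8* and *Krt18*, and other libraries were the highest in the rest of the 2 lists. The main olfactory sum was 1166 and 959 CPM in the 2 libraries against a median of 1079 CPM. The sum over sustentacular cells and Bowman's glands was 1695 and 1855 CPM against 1795 CPM. *Rtp1* and *Cbr2* make up most of these sums, which therefore cannot show a change in *Cnga2* or *Gpx6*. Over the 16 libraries the main olfactory sum had r = -0.20 with *Cyp2g1* on log2 CPM, here without the mean of each sex removed. Both libraries were also the highest in the nasal gland sum, at 118560 and 101365 CPM. Without these 2 libraries the line test called 24 of 40 P450 genes, against 44.4% of all genes.

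HR and Control lines were compared to ask whether selection for running was accompanied by a difference in P450 expression. No P450 gene passed the test: 0 of 40 had an adjusted p under 0.05 in edgeR's quasi-likelihood test with sex and linetype, against 0.0242% of all genes tested, and the number was also 0 with DESeq2, with summed counts per line and with limma-voom and a random effect of line. At an unadjusted p under 0.05 there were 3 of 40 genes, *Cyp1b1* and *Cyp46a1* higher and *Cyp4f14* lower in HR lines, against 3.3% of all genes. That test counts the 2 pools of a line as separate samples although they deviate together. With the counts of a line summed, *Cyp1b1* had an unadjusted p of 0.043 in edgeR, *Cyp46a1* of 0.081 and *Cyp4f14* of 0.136, so that 1 P450 gene stayed under 0.05, against 1.21% of all genes. The median log2 fold change was 0.02 over the 40 P450 genes and 0.0025 over all genes. With 8 line means, an exact permutation test of 4 against 4 cannot give a p below 0.0286.

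*Cyp1b1* (chr17:79701537-79715061, minus strand) had 7.98, 8.67, 7.07 and 5.01 RPKM in the Control males of lines 1, 2, 4 and 5 and 7.42, 8.24, 7.45 and 11.2 RPKM in the HR males of lines 3, 6, 7 and 8. It had 8.31, 9.52, 8.5 and 4.65 RPKM in the Control females and 12.7, 13.5, 10.1 and 11.3 RPKM in the HR females of the same lines. The mean over lines was 10.2 ± 1.10 RPKM in HR and 7.47 ± 1.84 RPKM in Control lines (SD, n = 4 lines each), and the line means overlapped, since Control line 2 (9.09 RPKM) was above HR line 7 (8.76 RPKM). The log2 fold change was 0.43 ± 0.15 (SE, edgeR p = 0.0121, adjusted p = 0.9997), and the exact two-sided permutation p over line means was 0.0571. It was 0.61 in females alone and 0.25 in males alone, and the adjusted p of the interaction of sex and linetype in edgeR was 1. Its promoter is printed because the gene is a known target of the aryl hydrocarbon receptor, and the capitals mark the reverse complement of that receptor's core motif GCGTG.
*Cyp1b1* promoter, chr17:79715012-79715311, minus strand, GRCm38.p6: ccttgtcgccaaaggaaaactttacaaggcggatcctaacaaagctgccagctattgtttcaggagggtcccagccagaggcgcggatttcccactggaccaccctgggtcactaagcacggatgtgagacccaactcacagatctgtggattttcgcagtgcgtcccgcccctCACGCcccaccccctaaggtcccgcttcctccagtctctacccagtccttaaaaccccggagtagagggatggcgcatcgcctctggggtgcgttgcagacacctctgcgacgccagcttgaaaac
GCGTG on either strand occurred in 32.46% of all RefSeq promoters and in 16 of the 77 P450 promoters (20.78%).

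*Cyp46a1* (chr12:108334381-108362234, plus strand) had 4.21, 2.61, 3.59 and 4.93 RPKM in the Control males of lines 1, 2, 4 and 5 and 5.52, 4.29, 5.43 and 5.23 RPKM in the HR males of lines 3, 6, 7 and 8. It had 3.36, 3.19, 6.86 and 5.2 RPKM in the Control females and 7.3, 5.84, 5.68 and 5.98 RPKM in the HR females of the same lines. Line means were 5.66 ± 0.558 RPKM in HR and 4.24 ± 1.10 RPKM in Control lines (SD, n = 4 lines each) and overlapped between HR line 6 (5.06 RPKM) and Control line 4 (5.23 RPKM). The log2 fold change was 0.39 ± 0.16 (SE, edgeR p = 0.0237, adjusted p = 0.9997), with an exact permutation p over line means of 0.0857. The unadjusted p of *Cyp46a1* rose above 0.05 without Control line 1 or 2 or HR line 3. *Cyp4f14*, a leukotriene B4 hydroxylase, had 0.297, 0.247, 0.384 and 0.418 RPKM in the Control males of lines 1, 2, 4 and 5 and 0.276, 0.329, 0.256 and 0.168 RPKM in the HR males of lines 3, 6, 7 and 8. It had 0.253, 0.39, 0.339 and 0.521 RPKM in the Control females and 0.151, 0.273, 0.281 and 0.0934 RPKM in the HR females of the same lines. Its log2 fold change was -0.51 ± 0.23 (SE, edgeR p = 0.041, adjusted p = 0.9997), with an exact permutation p over line means of 0.114, and its level of 0.282 RPKM was low. Its unadjusted p rose above 0.05 without Control line 4 or 5 or HR line 3 or 8.

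The highest P450 genes had wide errors in this comparison. The log2 fold change of *Cyp2a5* was 0.51 ± 0.36 (SE, edgeR adjusted p = 0.9997) and that of *Cyp2f2* -0.13 ± 0.58 (edgeR adjusted p = 0.9997). The fold of *Cyp2f2* ran from -0.82 without HR line 6 to 0.25 without Control line 4. Genes with less spread had narrower errors: *Cyp4v3* differed by 0.02 ± 0.07, *Cyp2j6* by 0.14 ± 0.09, *Cyp20a1* by -0.03 ± 0.11 and *Cyp39a1* by -0.04 ± 0.12. None of the 9 electron partner and haem genes had an unadjusted p under 0.05. Of 8 receptor genes that regulate P450 genes, 6 were tested and 0 passed the adjustment, while 2 had an unadjusted p under 0.05. *Ahrr*, the repressor of the aryl hydrocarbon receptor, had a log2 fold change of 0.64 ± 0.25 (SE, edgeR adjusted p = 0.9997) and *Ppara*, the fatty acid receptor, -0.23 ± 0.11 (edgeR adjusted p = 0.9997).

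**Figure D5:**
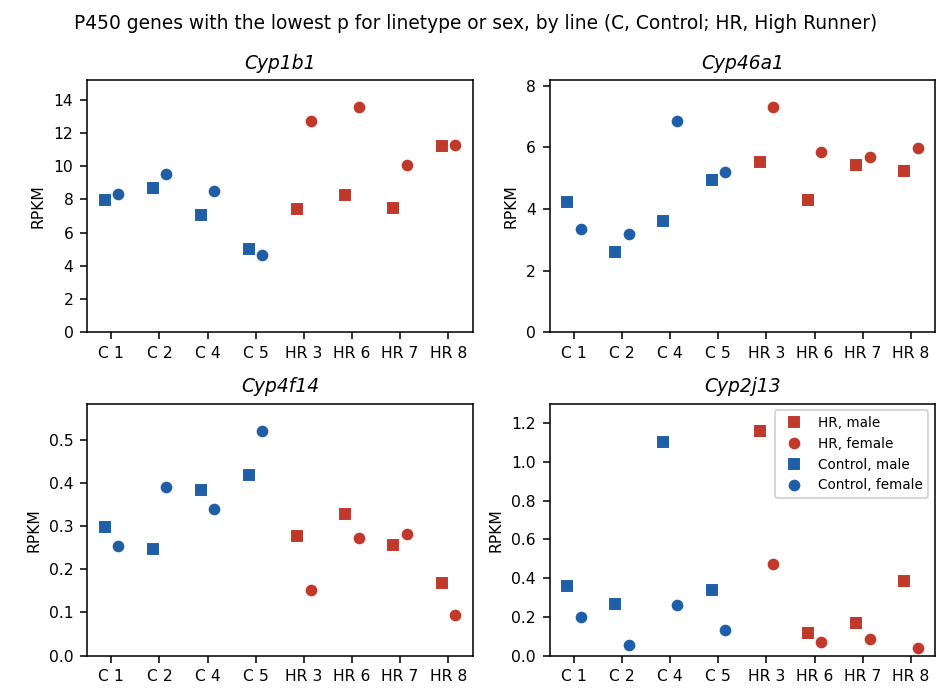
RPKM of *Cyp1b1*, *Cyp46a1*, *Cyp4f14* and *Cyp2j13* by line, axes from 0 (squares male, circles female, red HR, blue Control). HR and Control lines overlap in each of the first 3 genes, and the male pool lies above the female pool of the same line in all 8 lines for *Cyp2j13*.

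Females and males were compared in the same way. Without a term for line, no P450 gene had an adjusted p under 0.05, against 0.188% of all genes tested, and 3 of 40 had an unadjusted p under 0.05, against 8.08%. With line as a replicate block, which pairs the pools of a line, 1 P450 gene was called, against 0.545% of all genes, and 10 had an unadjusted p under 0.05, against 16.7%. The called gene was *Cyp2j13*, with 21 to 211 counts in male and 5 to 60 counts in female libraries. It had 0.36, 0.268, 1.1 and 0.339 RPKM in the Control males of lines 1, 2, 4 and 5 and 1.16, 0.115, 0.166 and 0.384 RPKM in the HR males of lines 3, 6, 7 and 8. It had 0.201, 0.0527, 0.259 and 0.131 RPKM in the Control females and 0.475, 0.0685, 0.0858 and 0.0411 RPKM in the HR females of the same lines. It was lower in females in 8 of 8 lines. The log2 fold change of female against male was -1.55 ± 0.51 (SE, edgeR adjusted p = 0.358) without and -1.48 (adjusted p = 0.0126) with the block. *Cyp2g1* and *Cyp2b19*, named here after their values were seen, were the others with an unadjusted p under 0.05 without the block. With the block, their log2 fold changes of female against male were -0.71 for *Cyp2g1* and 1.16 for *Cyp2b19*. The male libraries of Control line 5 and HR line 3 stood apart in *Cyp2g1*, as described above. With these 2 libraries left out, a choice made after seeing the data, the fold of *Cyp2g1* was only -0.14. That of *Cyp2b19* was 1.55. The male and the female libraries were deposited in separate tables, so sex and any difference in handling between the tables cannot be told apart. The interaction of sex and linetype had no adjusted p under 0.05 in P450 genes or in all genes (0.0%). At an unadjusted p under 0.05 it had 1 of 40 P450 genes, *Cyp27b1*, against 0.394% of all genes.

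The genes most like *Cyp2a5* over the 16 libraries, after the mean of each sex was removed, were *Ahsa2* (r = 0.85), *Armc2* (0.85) and *Zbtb14* (0.84). Those most like *Cyp2f2* were *Acsl1* (0.95), *Atp13a5* (0.94) and *Acsm1* (0.93). These are descriptions over libraries that share lines. *Cyp2t4* was listed near 0 in the RPKM table (0 to 0.0218 RPKM) although it had 6 to 85 counts per library. It overlaps *Egln2* on the other strand, and its ratio of CPM to RPKM was 77.2 kilobases against a median of 2.04 kilobases over 39 P450 genes, so its counts and its RPKM do not measure the same reads. *Cyp2b19* had a ratio of 35.5 kilobases.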

How the data were processed

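RNA of pooled VNOs was depleted of ribosomal RNA and sequenced as directional libraries with single-end reads. According to the paper's methods the authors aligned reads to GRCm38 (mm10) with STAR 2.6.1d, accepting no mismatch and no read with several locations, and computed RPKM, and the submitters' processing notes also name Cufflinks. The deposited count tables hold whole-number counts per gene, and the deposited RPKM tables hold RPKM without a log transform, each for 1 sex. The male and female RPKM tables are scaled separately, by 0.0615 on the log2 scale relative to CPM, so sexes were compared on counts. The counting tool, the annotation and the use of strand are not given in the sources used here. No column was left unused.

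Counts were fitted in R 4.3.3 with edgeR 4.0.16 (TMM, filterByExpr at a minimum count of 10, quasi-likelihood test, Benjamini-Hochberg adjustment, threshold 0.05). DESeq2 1.42.0 and limma 3.58.1 gave alternatives, as did other scaling, no filter, line sums, each sex alone, each line left out and line as a block. Log2 CPM used a prior count of 2. Permutations and tables used Python 3.11.15 with numpy 2.4.6, pandas 2.3.3 and scipy 1.17.1. In simulated data the edgeR test called 99.5% of 200 genes changed by 2 on the log2 scale for HR against Control and 91% for lines. The changed genes were drawn from well-counted genes, and the simulation for HR against Control held no variation between lines. Its 99.5% therefore does not measure the power of that test in these data. The line number, which the titles give, pairs the 2 libraries of a line: their deviations from the group means correlated in 8 of 8 lines (r from 0.321 to 0.708). Lines are nested in linetype and cannot block that contrast. Libraries of 1 group differed by far more than counting noise, so none was a copy. P-values of the line test, and of the sex test with a block, cover the spread of the 2 pools of a line. Those of edgeR's other fits on libraries mix the spread between lines with that between pools of 3 mice. Those for HR against Control from line sums or line means cover the spread between lines.

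The P450 genes and the lists of roles, markers and pathways were chosen with earlier results of these data known. The genes named were the 12 highest in level, the 8 with the largest SD between lines, those with an unadjusted p under 0.05 for linetype or an adjusted p under 0.05 for sex or interaction, the 2 highest of each role, the 3 with the lowest agreement of pools, and the 3 genes most like each of the 2 highest. A further rule on protein identity could not be applied, since protein sequences were not used here. Positions are from GENCODE M21 (102 of 104 genes) and promoters from RefSeq (77 of 104).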

Additional observations from a re-analysis of the deposited data

Results flagged for a closer look

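Among the genes named, 8 values lay farther from the other 3 libraries of their sex and linetype than Dixon's limit allows, of 112 groups examined. Chance alone is expected to flag about 1 in 20 groups. *Cyp2j13* was at 1.10 RPKM in the Control male of line 4, with the next library at 0.360 RPKM, and at 0.475 RPKM in the HR female of line 3, with the next at 0.0858 RPKM. *Cyp2j9* was at 29.6 RPKM in the Control female of line 2 (next 22.1 RPKM), where the male of the same line had 29.5 RPKM. *Cyp4f13* was at 6.56 RPKM in the Control female of line 5 (next 10.6 RPKM), where the male had 6.90 RPKM. *Cyp4f15* was at 26.9 RPKM in the Control female of line 1 (next 19.1 RPKM), where the male had 24.9 RPKM. *Cyp3a13* was at 0.691 RPKM in the HR male of line 7 (next 0.175 RPKM), where the female had 0.260 RPKM. *Cyp2t4* was at 0.0206 RPKM in the Control female of line 4 and at 0.0184 RPKM in the HR male of line 3, where the other libraries of these groups were listed at 0.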

How the results depend on the processing

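For HR against Control, 0 P450 genes passed the adjustment in any of the alternatives run. The number with an unadjusted p under 0.05, 3 in the test as reported, was 5 with no filter on low counts, 1 with the counts of a line summed and 0 in males alone. Over all genes tested it was 545 of 16507 as reported and 850 of 21766 with no filter. It was 207 of 17104 with line sums and 184 of 16361 in males alone. For females against males the number with an unadjusted p was 5 with no filter, 10 with line as a replicate block and 3 to 6 when 1 line was left out, the highest without Control line 4. Over all genes tested it was 1533 of 21766 with no filter, 2751 of 16507 with the block and 1344 of 16509 without Control line 4. With that block the number with an adjusted p was 1. For the interaction, the number with an unadjusted p was 1 as reported, 0 with no filter, 0 with DESeq2, 4 with the replicate block and 0 to 1 when 1 line was left out. Over all genes tested it was 65 of 16507 as reported, 270 of 21766 with no filter, 62 of 16507 with DESeq2 and 320 of 16507 with the block. The number of P450 genes whose pools agreed was 4 of 40 with linetype means removed and 0 when 1 line was left out, against 1 as reported. Over all 16507 genes it was 1133 with linetype means removed, 0 when 1 line was left out and 388 as reported. The line calls (19) stayed within 1.5 times of that number in all alternatives, and so did the 27 genes at 1 RPKM or more. Over all genes the replicate block raised the calls for sex from 31 to 90, and DESeq2 raised those for linetype from 4 to 30. Over all genes DESeq2 called 7190 for lines against 4714, and the number was 7332 without the male libraries of Control line 5 and HR line 3, an alternative chosen after seeing the data. The folds between HR and Control lines printed for *Cyp1b1*, *Cyp46a1*, *Cyp4f14*, *Cyp2a5* and *Cyp2j6* kept their sign in all runs. Others, none past the test, changed sign. *Cyp2f2* (-0.13) ran from -0.82 to 0.25 when 1 line was left out and was 0.31 in males alone. *Cyp4v3* (0.02) ran from -0.027 to 0.080 and was -0.011 with the counts of a line summed. *Cyp20a1* (-0.03) ran from -0.14 to 0.058 and was 0.051 in females alone. *Cyp39a1* (-0.04) ran from -0.14 to 0.10, was 0.036 in males alone and 0.0047 without those 2 male libraries. The cause of these changes was not tested. Precision is limited by 4 lines per linetype and, below 0.1 RPKM, by counts.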

Other observations

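For each of the 19 P450 genes called between lines, the 20 genes with the highest r over the 16 libraries were placed on the genome, a step chosen after the data were seen. For *Cyp4f16*, 9 of these 20 lay within 5 Mb of it on chromosome 17, a window that holds 1.57% of the tested genes with a position. They included *H2-D1* (r = 0.93), *Btnl2* (0.89), *Rgl2* (0.88), *H2-K1* (0.86) and *Tnxb* (0.84), which belong to the major histocompatibility complex or its edge. For *Cyp4f40* the number was 9 of 20, for *Cyp4f39* 7 of 20, among them *Tap1*, *Tap2* and *Hspa1l*, and for *Cyp4f13* 3 of 20. For *Cyp4f37* and *Cyp4a12b* it was 1, each time another P450 gene, *Cyp4f13* and *Cyp4b1*. For the other 13 genes, *Cyp2a5*, *Cyp2f2* and *Cyp2j9* included, it was 0. All of these points share the same libraries, and no genotype was used.

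The 3 genes most like *Cyp2j9* lay on other chromosomes and were *Hspa14* (r = 0.95), *Tdrp* (0.94) and *Chtop* (0.93).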
